A study of Mus musculus with 8 samples.

Results

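Expression of 10 genes that mark pericytes and vascular smooth muscle cells (Acta2, Myh11, Tagln, Cspg4, Mcam, Notch3, Kcnj8, Abcc9, Rgs5 and Rgcc) was examined in the bone marrow stroma of mice labelled as wild type C57BL/6J at 6 weeks of age. The genes were given as a list of symbols, and all 10 were matched among the 49315 genes counted, Rgcc by its RefSeq synonym and position. Each of 7 populations of stromal cells from bone marrow, named clusters 1 to 7, had 1 RNA-seq library, and so had the input cells of the marrow, which carry the same labels of strain, genotype and age. Because no population had a replicate, no difference between populations was tested, and intervals are 95% intervals that cover counting error only. The populations were sorted as CD31-, CD45- and Ter119-negative cells by combinations of Sca-1, CD24, CD39, CD54, CD121b and Ly-6C, so they are gates on surface antigens and not cells chosen for any of the 10 genes. The paper defined the 7 clusters in single cells positive for Sca-1 and PDGFR-alpha. Its Methods also list an antibody to PDGFR-alpha for enriching lineage-negative cells, and whether each gate included it is not known here. The Methods describe RNA from collected cells, a smaller amount of RNA and a range of ages that starts at that of the labels, whereas the extraction protocol of the labels describes crushed marrow, and which of these holds for the libraries is not known here. Counts on genes summed to 24205863, 25349917, 27102715, 32549319, 12833648, 31669132 and 33238133 in clusters 1 to 7, respectively, and 20162876 in the input. Levels are given as RPKM, the reads scaled to the exon length in kilobases and to the total count of the library.

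Pericytes wrap capillaries and venules and share the basement membrane with the endothelium, whereas smooth muscle cells form the contractile wall of arterioles and arteries. In the bone marrow, mural cells and perivascular stromal cells overlap in position, and several pericyte genes are also used by stromal, osteoblast or cartilage progenitors, so that no single gene of the list defines a pericyte. Smooth muscle cells contract through actin and a smooth muscle myosin, and in mural cells potassium channels that open when ATP is low, G protein regulators and Notch signals set the tone and identity of the vessel wall. In bulk RNA, fewer cells of a type and less RNA per cell cannot be told apart.

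The contractile members were highest in clusters 1 and 7 and lowest in cluster 6. Acta2 (ENSMUSG00000035783, chromosome 19 from 34241090 to 34255336, minus strand, GRCm38) encodes smooth muscle alpha-actin. The RPKM of Acta2 was 61.7, 28.3, 10.3, 39.8, 14.4, 4.68 and 84.7 in clusters 1 to 7, respectively, and 17.5 in the input. Each step in its order, cluster 7, 1, 4, 2, 5, 3 and 6, was larger than counting error. Cluster 7 exceeded cluster 1 by 1.37 times (1.31 to 1.44) and cluster 6 by 18.1 times (15.98 to 20.55).

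Myh11 (ENSMUSG00000018830, chromosome 16 from 14194527 to 14291408, minus strand) encodes the smooth muscle myosin heavy chain, a late marker of contractile smooth muscle. The RPKM of Myh11 was 5.76, 0.803, 0.679, 1.74, 0.987, 0.186 and 2.24 in clusters 1 to 7, respectively, and 1.45 in the input. Cluster 1 stood above all the others, at 2.57 times cluster 7 (2.30 to 2.87) and 31.0 times cluster 6 (22.5 to 43.9). Clusters 5, 2 and 3 were next to each other in the order and differed by less than counting error from one neighbour to the next. Myh11 was counted with 39 reads in cluster 6 and with 924 in cluster 1.

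Tagln (ENSMUSG00000032085, chromosome 9 from 45929619 to 45936058, minus strand) encodes transgelin, an actin-binding protein of smooth muscle. The RPKM of Tagln was 5.65, 3.79, 1.23, 3.54, 2.78, 0.270 and 5.43 in clusters 1 to 7, respectively, and 0.574 in the input. Clusters 1 and 7 could not be distinguished (ratio 1.04, 0.885 to 1.22), and cluster 6, with 17 reads, was 20.9 times lower than cluster 1 (12.8 to 36.5). Genes on the opposite strand overlap the exons of Tagln. An antisense gene covers 62.4% of its exon length and had 4 to 41 reads per library, and Pcsk7 covers 5.43% (108 bases) and had 149 to 1214 reads over its whole length, 913 of them in cluster 6, where Tagln had 17. Because no source states that the counting used strand, reads of these genes cannot be told apart from those of Tagln where they overlap. The level of Tagln is thus uncertain in each library, and above all its low level in cluster 6. Antisense genes also cover 6.07% of the exon length of Notch3, 1.89% of Abcc9 and 0.507% of Mcam.

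**Figure D1:**
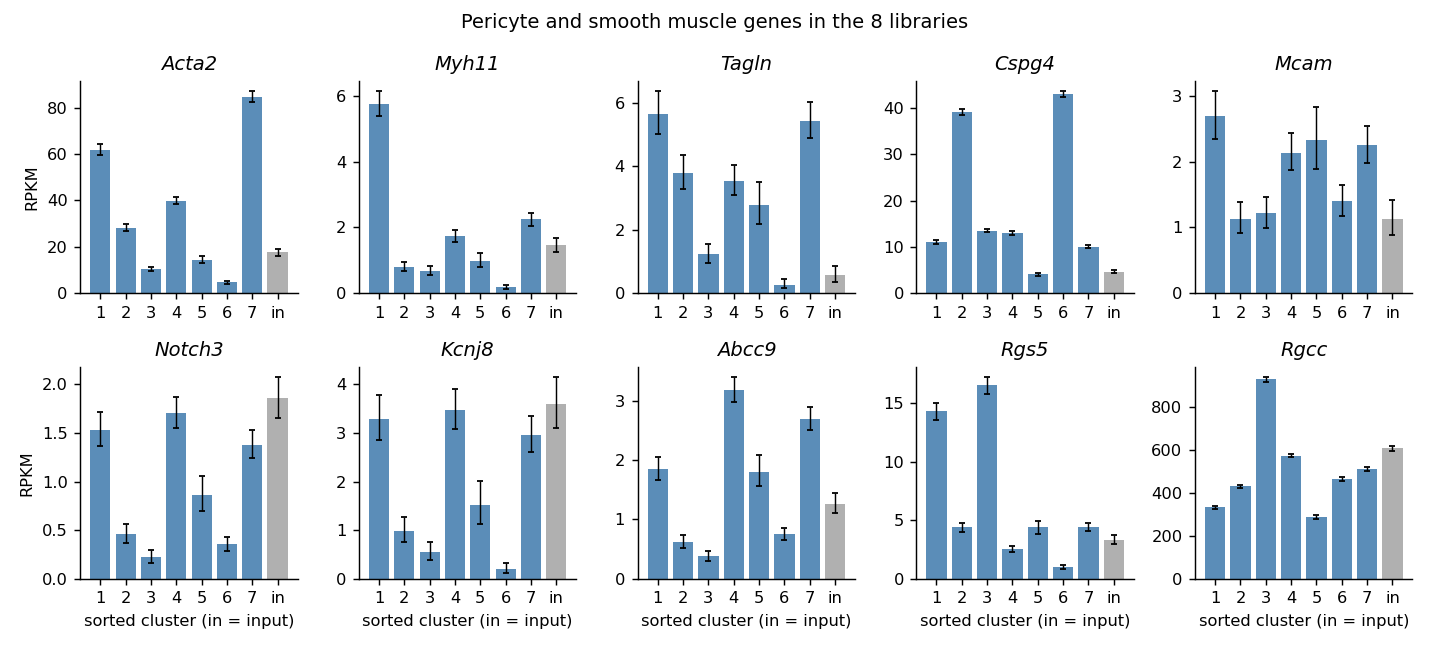
RPKM of the 10 genes in the 7 sorted libraries (blue, clusters 1 to 7) and the input (grey), 1 library each, with the 95% Poisson interval of the count as the error bar. The vertical axis differs between panels. Acta2 reached 84.7 in cluster 7 and Cspg4 43.0 in cluster 6, where Acta2 was 4.68.

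Among the actin and myosin paralogues, Acta1 was negatively related to Acta2 (Pearson's r of log2(RPKM + 1) over the 7 sorted libraries, -0.74). Acta1, the skeletal muscle alpha-actin, had an RPKM of 3.85, 69.6, 29.8, 1.00, 21.5, 43.4 and 1.98 in clusters 1 to 7, respectively, and 7.04 in the input. Acta1 was thus low in clusters 1, 4 and 7, where Acta2 was highest, and high in cluster 6, where Acta2 was lowest. The cytoplasmic actins Actb (678 to 1395 in the sorted libraries) and Actg1 (261 to 691) were far more abundant than Acta2. Actg2, the actin of visceral smooth muscle, was highest in cluster 7 (3.03) and lowest in cluster 6 (0.203), as Acta2 was. Non-muscle myosin Myh10 had its highest RPKM in cluster 1 (5.16) and its lowest in cluster 6 (0.625), as Myh11 did, whereas Myh9 ranged only from 4.46 to 8.63. In the mouse transcripts of GENCODE, 7 of the 1732 stretches of 50 bases of Acta2 were shared with Actg1 and 26 of 6629 of Myh11 with Myh9 or Myh10, and no stretch of 150 bases was shared for either gene.

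Smooth muscle genes are known to be switched on by serum response factor, which binds the CArG box. The 250 bases before the start site are shown for Acta2, for Myl9, a contractile gene with a level in the range of Acta2, and for Acta1, which was low where Acta2 was highest. They are from RefSeq on GRCm38.p6, and capitals mark CArG boxes and CArG boxes with 1 G or C among the middle 6 bases, on either strand. The positions are chr19:34255374-34255623 (minus strand) for Acta2, chr2:156775214-156775463 (plus strand) for Myl9 and chr8:123894776-123895025 (minus strand) for Acta1.
Acta2: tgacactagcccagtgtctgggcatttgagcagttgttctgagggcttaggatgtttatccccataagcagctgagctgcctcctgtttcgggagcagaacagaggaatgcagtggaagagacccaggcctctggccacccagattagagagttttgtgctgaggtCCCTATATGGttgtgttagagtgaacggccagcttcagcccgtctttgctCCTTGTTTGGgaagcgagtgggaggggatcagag
Myl9: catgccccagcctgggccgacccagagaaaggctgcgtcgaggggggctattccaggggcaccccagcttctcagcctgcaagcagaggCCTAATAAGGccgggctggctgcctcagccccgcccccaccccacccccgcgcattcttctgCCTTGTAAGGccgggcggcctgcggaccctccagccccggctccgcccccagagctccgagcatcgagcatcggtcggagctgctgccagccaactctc
Acta1: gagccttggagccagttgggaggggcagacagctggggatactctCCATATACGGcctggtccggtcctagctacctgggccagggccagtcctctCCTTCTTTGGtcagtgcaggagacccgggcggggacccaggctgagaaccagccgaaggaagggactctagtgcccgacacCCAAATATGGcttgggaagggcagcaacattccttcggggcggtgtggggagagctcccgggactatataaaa
A promoter of 300 bases, with 50 bases after the start site, was given for 8 of the 10 genes, and Myh11 and Tagln were not among them. An exact CArG box was in 0 of these 8 and in 1.63% of all 32851 promoters. With 1 G or C permitted, which was chosen after the data were seen, Acta2 had matches starting at -84 (CCCTATATGG) and -34 (CCTTGTTTGG) from the start site, and the other 7 genes had none. Such a match was in 8.50% of all promoters. Myl9 had an exact box at -161 and Acta1 at -73. TGGGAA, a core bound by the Notch effector RBPJ, was found on either strand in Acta2 (at -27, overlapping the match at -34), Kcnj8 and Abcc9 and in 25.6% of all promoters. Among the 12 other contractile genes with a promoter, 2 had an exact box (Myl9 and Srf) and 1 had a match with 1 G or C (Myl9), so most of these promoters had no such letters in the window.

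Other genes of the contractile apparatus were compared in the same libraries. Of 14 such genes, 11 had RPKM above 2 in at least 1 sorted library, and 10 of these 11 differed more than 2-fold in RPKM + 1 between the highest and the lowest library, against 70.6% of the 12360 genes tested. Cluster 1 was the highest library of 6 of the 11 (21.3% of genes tested), and cluster 6 was the lowest of 5 (25.5%). Myl9, the regulatory light chain, had an RPKM of 59.3, 25.3, 10.4, 64.9, 31.4, 3.97 and 54.8 in clusters 1 to 7, respectively, and 12.1 in the input. Caldesmon (Cald1) ranged from 31.0 in cluster 1 to 3.84 in cluster 6, and calponin (Cnn1) from 2.02 in cluster 1 to 0.189 in cluster 3. Tpm1, a tropomyosin also used outside muscle, had its lowest level in cluster 1 (26.5) and its highest in cluster 2 (53.8). Myocd, the coactivator of serum response factor in smooth muscle, did not exceed 0.216 in any sorted library, and Lmod1 did not exceed 0.816.

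The surface members did not form 1 pattern. Cspg4 (ENSMUSG00000032911, chromosome 9 from 56865033 to 56899870, plus strand) encodes the proteoglycan NG2, which is used to mark pericytes and is also found on cartilage and glial progenitors. The RPKM of Cspg4 was 11.1, 39.2, 13.5, 13.0, 4.10, 43.0 and 10.1 in clusters 1 to 7, respectively, and 4.66 in the input. Clusters 6 and 2 were the high libraries, and cluster 6 exceeded cluster 2 by only 1.10 times (1.07 to 1.13) and cluster 5 by 10.5 times (9.69 to 11.4). Cspg4 was thus highest where Acta2, Myh11 and Tagln were lowest.

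Cartilage genes had the same 2 high libraries as Cspg4. Aggrecan (Acan) had an RPKM of 8.53, 287, 9.34, 49.7, 7.19, 349 and 12.8 in clusters 1 to 7, respectively, and 4.36 in the input. Summed over 6 cartilage markers, of which Col2a1 was the most abundant in each library, RPKM was 10908 in cluster 2 and 12737 in cluster 6 but 201 to 3423 in the other sorted libraries. Over the 7 sorted libraries, Pearson's r of log2(RPKM + 1) between Cspg4 and Sox9 was 0.94 and between Cspg4 and Acan 0.91. It was 0.88 with Col10a1, 0.84 with Col2a1, 0.82 with Col9a1 and 0.79 with Matn3. With the sum of the 6 markers, Pearson's r was 0.85 and Spearman's rho, which uses ranks, was 0.61. The part of cartilage cells in the level of Cspg4 was not tested.

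Mcam (ENSMUSG00000032135, chromosome 9 from 44134469 to 44142727, plus strand) encodes CD146, an adhesion molecule of endothelium, pericytes and marrow stromal progenitors. The RPKM of Mcam was 2.69, 1.13, 1.21, 2.14, 2.33, 1.40 and 2.25 in clusters 1 to 7, respectively, and 1.13 in the input. Clusters 1, 5, 7 and 4 were the higher libraries and clusters 6, 3 and 2 the lower, and no neighbour within either set differed beyond counting error. Cluster 1 exceeded cluster 2 by 2.38 times (1.86 to 3.06), which was the narrowest range of the 10 genes. On RPKM + 1, to which the 2-fold threshold was applied here, this was 1.73 times and below the threshold, which the ratio of RPKM itself passed.

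Notch3 (ENSMUSG00000038146, chromosome 17 from 32120820 to 32166880, minus strand) encodes the Notch receptor of mural cells. The RPKM of Notch3 was 1.53, 0.461, 0.220, 1.71, 0.862, 0.353 and 1.38 in clusters 1 to 7, respectively, and 1.86 in the input. Clusters 4, 1 and 7 were high and differed from one to the next by less than counting error, and cluster 4 exceeded cluster 3 by 7.75 times (5.75 to 10.7). Notch3 was the only one of the 10 genes that did not exceed RPKM 2 in any sorted library. Heyl, a transcriptional target of Notch in mural cells, was also highest in cluster 4 (2.44) and lowest in cluster 3 (0.166), and its r with Notch3 was 0.91 over the 7 libraries.

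The subunits of the vascular ATP-sensitive potassium channel were highest in cluster 4. Kcnj8 (ENSMUSG00000030247, chromosome 6 from 142564837 to 142571614) encodes the pore subunit Kir6.1 and Abcc9 (ENSMUSG00000030249, chromosome 6 from 142587862 to 142702315) the regulatory subunit SUR2. They are neighbours on the minus strand, 16247 bases apart with no annotated gene between them. The RPKM of Kcnj8 was 3.29, 0.991, 0.550, 3.47, 1.53, 0.198 and 2.96 in clusters 1 to 7, respectively, and 3.60 in the input. The RPKM of Abcc9 was 1.85, 0.622, 0.379, 3.18, 1.81, 0.747 and 2.69 in clusters 1 to 7, respectively, and 1.27 in the input. Clusters 4, 1 and 7 held the highest 3 levels of both genes by total count, but for Abcc9 clusters 1 and 5 did not differ beyond counting error. With DESeq2 size factors cluster 5 had the second highest level of Abcc9 (2.56). It was also second (2.77) with Rn18s-rs5, Lars2 and mmu-mir-689-2 left out of the totals. Kcnj8 in cluster 4 was 17.5 times its level in cluster 6 (10.6 to 31.1, 16 reads in cluster 6), and Abcc9 in cluster 4 was 8.40 times its level in cluster 3 (6.73 to 10.6). Abcc9 in cluster 4 also exceeded the next library, cluster 7, beyond counting error (1.18 times, 1.07 to 1.31), whereas Kcnj8 did not exceed cluster 1 (1.06 times, 0.879 to 1.27). Abcc8, the subunit of the channel in neurons and pancreatic beta cells, did not exceed 0.0494 in the sorted libraries, and Kcnj11 was not analysed here.

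Of the sorted libraries, cluster 3 had the highest level of the signal regulators. From single-cell data, and not from these libraries, the authors give both genes as upregulated in cluster 7. Rgs5 (ENSMUSG00000026678, chromosome 1 from 169655501 to 169695813, plus strand) encodes a GTPase activator of G proteins and is one of the most widely used pericyte markers. The RPKM of Rgs5 was 14.3, 4.41, 16.5, 2.52, 4.39, 1.03 and 4.39 in clusters 1 to 7, respectively, and 3.34 in the input. Clusters 3 and 1 stood well above the others, cluster 3 exceeding cluster 1 by 1.16 times (1.08 to 1.23) and cluster 6 by 16.1 times (13.6 to 19.1). Clusters 2, 7 and 5 did not differ beyond counting error. Acta2 was 10.3 in cluster 3, so the library with the most Rgs5 was among the lowest in contractile genes, and cluster 1 was high in both. Of the related regulators, Rgs4 was also highest in cluster 3 (11.1), whereas Rgs16 was lowest there (2.97) and highest in cluster 4 (13.2).

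Rgcc (ENSMUSG00000022018, chromosome 14 from 79288756 to 79301645, minus strand) encodes a regulator of the cell cycle that is also induced by complement and by hypoxia. The RPKM of Rgcc was 333, 429, 927, 573, 285, 463 and 509 in clusters 1 to 7, respectively, and 606 in the input. Rgcc was the most abundant of the 10 genes in every library and had the smallest ratio of RPKM between the highest and the lowest sorted library after Mcam, although on RPKM + 1 Notch3 (2.22) and Abcc9 (3.03) varied less than Rgcc (3.24). Cluster 3 was at 1.62 times cluster 4 (1.59 to 1.65) and 3.25 times cluster 5 (3.13 to 3.37). By total count, the level in the input was higher than in 6 of the 7 sorted libraries. With TMM factors of edgeR in place of the total count this turned, since Rgcc was 380 in the input and 301, 431, 942, 587, 386, 597 and 492 in clusters 1 to 7, respectively, and cluster 1 in place of cluster 5 was then the lowest.

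The number of the 10 genes with RPKM above 2 was 9 in cluster 7, where 20.7% of all genes counted passed, and 8 in both cluster 1 (21.3%) and cluster 4 (19.9%). It was 6 in cluster 5 (17.6%), 5 in cluster 2 (20.2%) and 4 in cluster 3 (19.6%). Cluster 6 had only 3 (18.3%), Acta2, Cspg4 and Rgcc, and the input had 5 (35.6%). In at least 1 sorted library, 9 of 10 exceeded 2, against 25.1% of all genes. Among these 9, the highest library was cluster 1 for Myh11, Tagln and Mcam (21.3% of the 12360 genes tested), cluster 3 for Rgs5 and Rgcc (9.85%), cluster 4 for Kcnj8 and Abcc9 (8.95%), cluster 6 for Cspg4 (7.10%) and cluster 7 for Acta2 (25.3%). No member was highest in cluster 2 (22.8%) or cluster 5 (4.73%). Cluster 6 was the lowest library for 5 of the 9, Acta2, Myh11, Tagln, Kcnj8 and Rgs5, against 25.5% of the genes tested. The lowest library was cluster 5 for Cspg4 and Rgcc (46.3%), cluster 3 for Abcc9 (8.11%) and cluster 2 for Mcam (7.25%), and clusters 1 (3.82%), 4 (4.40%) and 7 (4.59%) were the lowest for none. RPKM + 1 differed more than 2-fold between the highest and the lowest sorted library for 8 of the 9, near the 70.6% of all genes tested, and the median log2 difference was 2.14 over all 10, of which Notch3 did not pass the filter, and 1.26 over the genes tested. Only Myh11 exceeded each of the other 6 sorted libraries more than 2-fold (2.08 times in RPKM + 1, against 5.40% of genes tested), and with TMM factors of edgeR in place of the total count this ratio was 1.96.

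**Figure D2:**
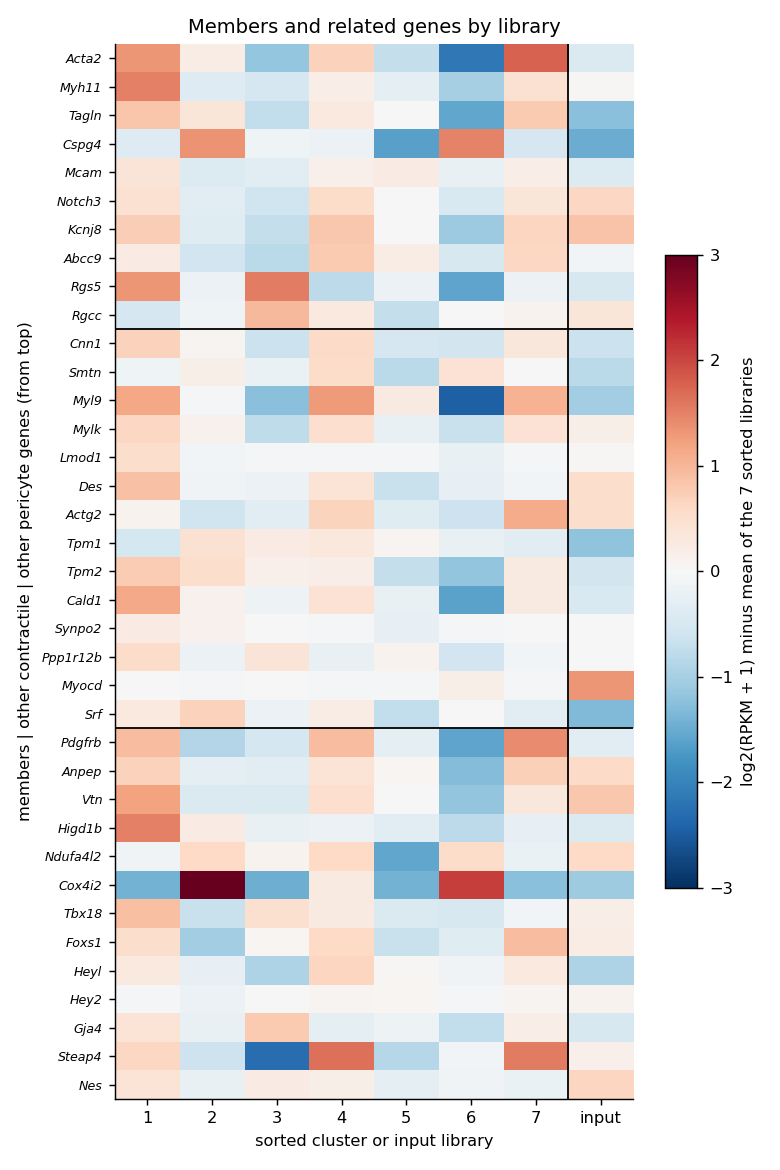
Colour gives log2(RPKM + 1) minus the mean of the 7 sorted libraries, with the scale ending at -3 and 3, for the 10 genes (top), 14 other contractile genes (middle) and 13 other pericyte genes (bottom), 1 column for each library. Cluster 1 is red for most genes and cluster 6 blue, with Cspg4, Cox4i2, Smtn and Ndufa4l2 among the exceptions.

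The likeness of the patterns was described by Pearson's r of log2(RPKM + 1) over the 7 sorted libraries, which share the library totals by which each was scaled. Acta2, Myh11, Tagln, Notch3, Kcnj8 and Abcc9 were positively related in all 15 pairs, with r from 0.61 to 0.97, and 11 of the 15 exceeded 0.8. The highest were Notch3 with Kcnj8 (0.97), Acta2 with Tagln (0.95) and Notch3 with Abcc9 (0.95). Mcam was also positively related to these 6 genes (0.61 to 0.88, and 0.34 to 0.82 with TMM factors, the lowest with Acta2). Cspg4 was negatively related to 8 of the 9 others, down to -0.73 with Mcam, and the highest r of Rgs5 was 0.50, with Myh11. Rgcc was negatively related to 7 of the 9. Below 0 were 17 of all 45 pairs of members, and 23879817 of the 76378620 pairs of genes tested. Of all 45 pairs, 14 exceeded 0.8 (31.1%), against 7.49% of the pairs of genes tested. Several of the 14 hold Notch3, which did not pass the filter of the genes tested. With TMM factors fewer pairs of members exceeded 0.8, and the share over all pairs of genes tested was not computed by these factors. Acta2 with Notch3 was then 0.76, Myh11 with Tagln 0.79 and Mcam with Kcnj8 0.64. With TMM factors the 6 genes had r from 0.53 to 0.95.

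**Figure D3:**
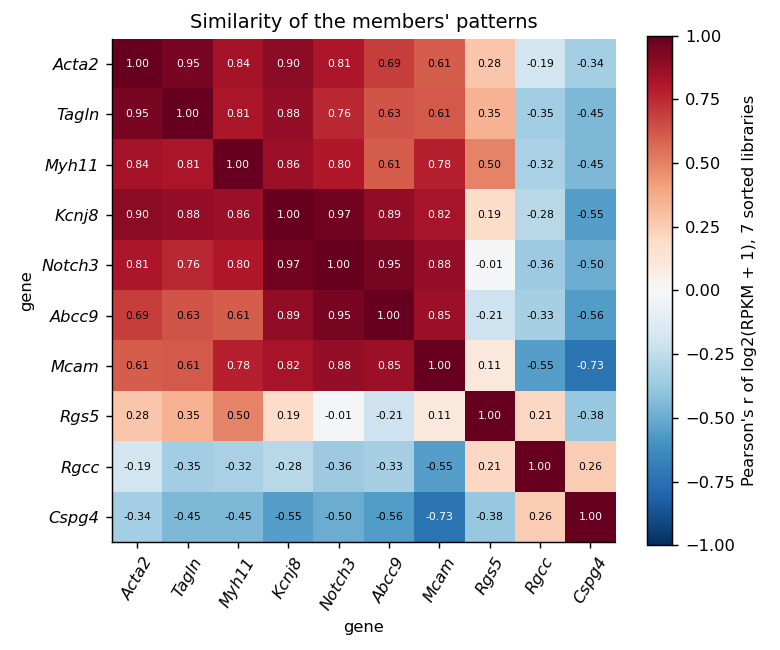
Pearson's r of log2(RPKM + 1) over the 7 sorted libraries for each pair of the 10 genes, with red for positive and blue for negative values. The upper left block of Acta2, Tagln, Myh11, Kcnj8, Notch3, Abcc9 and Mcam holds values from 0.61 to 0.97, and the row of Cspg4 is blue except for Rgcc.

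For each of the 10 genes, the genes with the most similar pattern were sought among 10947 with a symbol and at least 50 reads in their highest library. These were Clk1 (r = 0.99) and Trim12a (0.98) for Acta2, Herc1 and Clec1a (both 0.99) for Myh11, and Asf1a and Trim12a (both 0.98) for Tagln. They were Pcnx (0.99) and Sc4mol (0.98) for Cspg4, Kcnk2 (0.96) and Dand5 (0.95) for Mcam, and Tspan11 (0.99) and Ms4a4d (0.98) for Notch3. Casp4 (0.996) and Inmt (0.99) were most similar to Kcnj8, and Icam1 and Angpt4 (both 0.98) to Abcc9. Gps2 (0.97) and Lpin2 (0.96) were most similar to Rgs5, and Med10 (0.97) and Dmkn (0.96) to Rgcc. Each was picked as the highest of 10947 values over 7 libraries, so its high r follows from the choice and is no support for a link. Above 0.95 were 80 of the 10947 genes for Kcnj8, 54 for Cspg4, 40 for Notch3, 26 for Myh11 and 22 for Acta2. They were 14 for Abcc9, 11 for Tagln, 7 for Rgcc, 6 for Rgs5 and 2 for Mcam. Icam1 encodes CD54, by which some of the populations were sorted, and its RPKM was 237 in cluster 4 and 150 in cluster 7, the population gated as CD54-negative. Inmt had an RPKM of 82.6 in cluster 4, 52.7 in cluster 7 and 49.2 in cluster 1 and did not exceed 8.18 in the other sorted libraries.

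Other pericyte genes differed among themselves as the 10 genes did. Of 13 such genes, 11 had RPKM above 2 in a sorted library (25.1% of all genes) and all 11 of these differed more than 2-fold in RPKM + 1 (70.6% of genes tested). The highest library was cluster 1 for 3 (21.3%), cluster 4 for 3 (8.95%) and cluster 7 for 3 (25.3%), and cluster 6 was the lowest for 5 of the 11 (25.5%). Pdgfrb, the receptor by which endothelial PDGF recruits pericytes, had an RPKM of 45.3, 12.3, 15.8, 45.5, 18.8, 7.18 and 64.5 in clusters 1 to 7, respectively, and 18.1 in the input. Pdgfrb was positively related to Acta2 (r = 0.90) and Kcnj8 (0.95) and negatively to Cspg4 (-0.58). Higd1b, a marker of capillary pericytes, was 3.95 in cluster 1, at most 1.07 in the other sorted libraries, and 0 reads in cluster 6. Cox4i2, a subunit of cytochrome oxidase that is abundant in pericytes of lung, was 122 in cluster 2 and 56.3 in cluster 6 and between 3.93 and 15.2 in the rest, as Cspg4 and the cartilage genes were.

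Markers of other cell types were present in the sorted libraries and were set beside the 10 genes. The 7 osteoblast markers summed to 4464, 7518, 21589, 2928, 10424, 31042 and 3735 RPKM in clusters 1 to 7, respectively, and 906 in the input, with Col1a1 or Bglap the most abundant. Their sum ran against Acta2 (r = -0.94), Kcnj8 (-0.96) and Notch3 (-0.90). The single markers did so to differing degrees. With Acta2, r was -0.94 for Dmp1, -0.90 for Bglap, -0.87 for Col1a1, -0.77 for Sp7 and -0.59 for Alpl. It was only -0.45 for Ibsp and -0.37 for Runx2. Clusters 4, 7 and 1, with the lowest sum of these markers, were those with the most Acta2. The 8 skeletal muscle markers summed to 179 in cluster 2 and 81.2 in cluster 6 but 4.52 in cluster 4 and 6.73 in cluster 7, and their sum ran against Abcc9 (r = -0.91), Notch3 (-0.90) and Acta2 (-0.68). The 10 endothelial markers, of which Plvap was the most abundant, summed to 35.5 in cluster 1 and 6.57 in cluster 6, with 16.6 to 28.8 in the others. All 6 that passed the filter were lowest in cluster 6, against 25.5% of genes tested. Their sum had r = 0.78 with Rgs5, 0.77 with Tagln and -0.70 with Cspg4. The 6 megakaryocyte markers, led by Pf4 (67.0 in cluster 3), summed to 88.2 in cluster 3, 63.0 in cluster 1 and 6.23 in cluster 6, and had r = 0.89 with Rgs5. Leukocyte RNA was present in each library, since S100a8 was 3132 to 7878 and Ptprc, which encodes the CD45 used for negative selection, 1.69 to 9.26. The 9 stromal markers, with Ly6a the most abundant except in cluster 6 (Foxc1), summed to 1065, 152, 1180, 922, 213, 50.5 and 493 in clusters 1 to 7, respectively, and 682 in the input, with r from -0.53 (Cspg4) to 0.74 (Rgs5). Among them, Cxcl12, the chemokine by which marrow stroma retains haematopoietic cells, was highest in cluster 4 (139) and lowest in cluster 6 (5.04), and had r = 0.91 with Abcc9, 0.90 with Kcnj8 and 0.88 with Notch3. Kitl, the ligand of Kit, had r = 0.88 with Kcnj8 and 0.82 with Myh11, and Pdgfra was 4.37 to 28.1. Not all of the stromal markers ran this way. Foxc1, highest in cluster 2, had r = -0.34 with Abcc9, -0.36 with Kcnj8 and -0.39 with Notch3, and Ly6a had 0.27 with Abcc9. Ly6a encodes Sca-1, by which some of the populations were sorted, and was 931 in cluster 3 and 590 in cluster 1. The stromal sum is therefore not independent of the sorting. The part of these other cell types in the levels of the 10 genes was not tested.

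**Figure D4:**
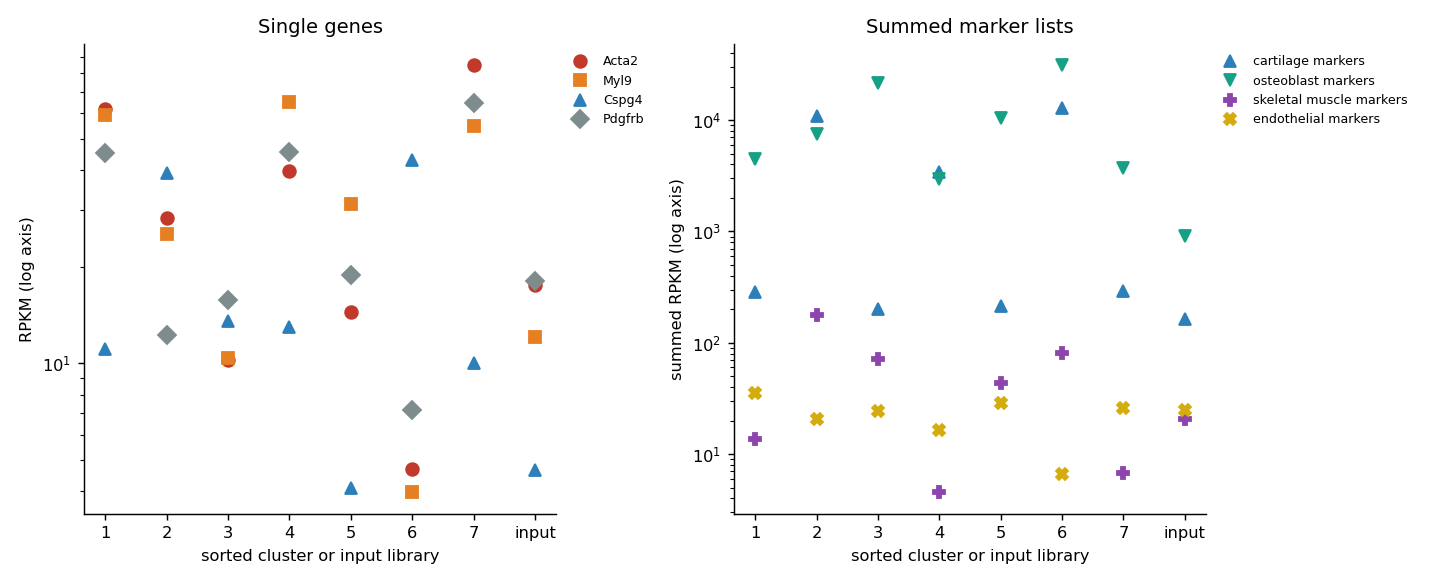
RPKM of Acta2, Myl9, Cspg4 and Pdgfrb (left) and the summed RPKM of 4 lists of markers (right) in the 7 sorted libraries and the input, 1 point for each library, on log axes. Acta2, Myl9 and Pdgfrb are lowest in cluster 6, where the cartilage sum (12737) and the osteoblast sum (31042) are highest.

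Each sorted library was compared with the input by the threshold of 2-fold in RPKM + 1, for genes that exceeded RPKM 2 in either of the compared libraries. The 7 comparisons share the input library, and genes below the filter in both libraries were left out, so that the number of members compared varied from 5 to 9. Myh11, Tagln, Mcam and Abcc9 were below RPKM 2 in the input and were therefore compared only where the sorted library exceeded 2, and Notch3 was compared in none. The filter thus fixed the direction of these genes, so the counts below describe the calls and are no support for a rise of the members. In cluster 1, Acta2, Myh11, Tagln, Cspg4 and Rgs5 were higher than the input (5 of 8, against 5.53% of genes tested) and none was lower (41.6%). In cluster 7, Acta2 and Tagln were higher (2 of 9, 3.43%) and none was lower (39.4%), and in cluster 4, Acta2, Tagln and Cspg4 were higher (3 of 8, 4.68%) and none was lower (45.5%). Tagln and Cspg4 were higher in cluster 2 (2 of 6, 7.06%), Cspg4 and Rgs5 in cluster 3 (2 of 5, 4.33%), Tagln in cluster 5 (1 of 7, 3.21%) and Cspg4 in cluster 6 (1 of 5, 3.82%). Lower than the input were Kcnj8 in clusters 2 (47.9%) and 3 (46.5%), Rgcc in cluster 5 (61.0%) and Acta2, Kcnj8 and Rgs5 in cluster 6 (3 of 5, 53.6%). In cluster 1, RPKM of Tagln was 9.85 times the input (6.43 to 15.8) and Acta2 3.52 times (3.23 to 3.85), and in cluster 7, Acta2 was 4.83 times the input (4.44 to 5.25). Cspg4 in cluster 6 was 9.24 times the input (8.70 to 9.83), and Rgs5 in cluster 3 was 4.95 times (4.39 to 5.60).

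The median log2 ratio of RPKM + 1 to the input over all genes tested was -0.67 in cluster 1 and -1.11 in cluster 6. This general level below the input moved with the scaling, since with TMM factors it was 0.02 in cluster 1 and -0.0022 in cluster 6. By these factors, genes called higher and lower were 13.4% and 27.3% in cluster 1, in place of 5.53% and 41.6%. Genes that were then also higher were Mcam in cluster 1, Acta2 in cluster 2 (16.7% of genes tested), Rgcc in cluster 3 (13.8%), Abcc9 in cluster 4 (14.3%), Mcam and Rgs5 in cluster 5 (12.5%), and Cspg4 and Abcc9 in cluster 7 (10.1%). Kcnj8 in cluster 2 (28.8% of genes tested were lower), Rgcc in cluster 5 (26.6%) and Acta2 and Rgs5 in cluster 6 (28.3%) were no longer lower.

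**Figure D5:**
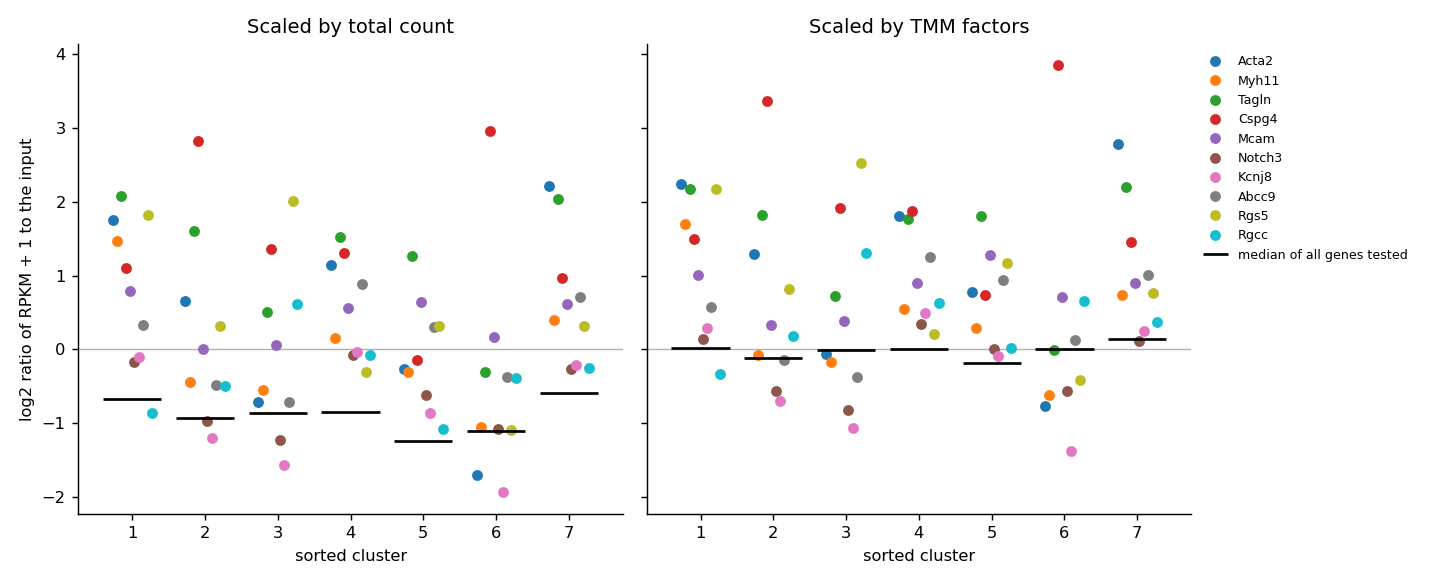
Log2 ratio of RPKM + 1 in each sorted library to the input, for each of the 10 genes (points), with the median over all genes tested (black line), by total count (left) and by TMM factors (right). The line is at -0.67 in cluster 1 by total count and at 0.02 by TMM factors, and Cspg4 in clusters 2 and 6 lies highest in both panels.

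The input also carried low levels of genes that marrow is not known to use. Of 976 olfactory receptor genes, 8.71% exceeded RPKM 2 in the input and the 95th percentile was 2.76, whereas none exceeded RPKM 2 in the sorted libraries, where the 95th percentile was at most 0.247. Myocd (1.68), Abcc8 (1.92) and Rgs8 (0.669) were higher in the input than in any sorted library. The levels of Myh11, Tagln, Mcam, Notch3 and Abcc9 in the input (0.574 to 1.86) lay within this range, and Kcnj8 (3.60) and Rgs5 (3.34) were just above it, so that ratios of these genes to the input rest on a level near this background.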

How the data were processed

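For each library, the authors deposited the raw count of reads on the exons of every Ensembl gene, together with exon positions and exon lengths. According to the Methods, reads were processed with Partek Flow 2.2, aligned with TopHat2 to mm9 and quantified as RPKM. However, 96.2% of 23287 symbols start within 10 kb of their RefSeq GRCm38 position, so the coordinates are given as GRCm38. The counting tool, its use of strand and its treatment of reads shared between genes are not given in the sources used here. The deposited name table and RefSeq gave symbols.

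RPKM was computed by dividing each count by the exon length and by the sum of the counts, and the thresholds of the Methods (RPKM above 2, fold above 2, here of RPKM + 1) were kept. Levels have exact Poisson intervals and ratios exact Clopper-Pearson intervals. Because each population had 1 library, no test was run, and edgeR and DESeq2 gave scaling factors only. Duplicate molecules from PCR could not be recognised, so the intervals cover counting error only. The 10 genes and all gene lists were chosen with earlier results of these data known. The genes named are the 10 genes, those of the lists, and for each of the 10 the 2 genes with the highest r. The lists comprised contractile, pericyte, channel, actin, myosin and RGS genes and markers of endothelium, skeletal muscle, megakaryocytes, osteoblasts, cartilage, stroma, leukocytes and erythroid cells. Alternatives comprised TMM and DESeq2 scaling, and totals without 3 abundant loci (Rn18s-rs5, Lars2 and mmu-mir-689-2) or without mitochondrial and haemoglobin genes. They also comprised counts thinned to the lowest total, other thresholds and a pseudocount of 0.1. The calculations were tested on simulated counts. Promoters are from RefSeq, and transcripts from GENCODE on NCBIM37 were compared by sequence only. The tools were edgeR 4.0.16 and DESeq2 1.42.0 in R 4.3.3, and scipy 1.17.1, pandas 2.3.3, numpy 2.4.6 and matplotlib 3.10.9 in Python 3.11.15.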

Additional observations from a re-analysis of the deposited data

How the results depend on the processing

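No paired analysis was possible because no population had more than 1 library. Scaling moved most of the values that changed. With TMM factors, and equally with DESeq2 size factors, members highest in a library were 1 in cluster 1 (9.98% of genes tested with TMM and 8.40% with DESeq2), 1 in cluster 5 (11.6% and 14.0%) and 2 in cluster 7 (17.1% and 14.0%), since Tagln was then highest in cluster 7 and Mcam in cluster 5, and 0 members exceeded each of the other sorted libraries 2-fold (6.10% and 6.45%), as with a 4-fold threshold (0.542%). Members lower than the input were then 0 in cluster 2 (28.8% and 28.9%), 0 in cluster 5 (26.6% and 26.0%) and 1 in cluster 6 (28.3% and 28.7%), and members higher were 3 in cluster 5 (12.5% and 13.3%) and, with TMM factors, 4 in cluster 7 (10.1%). With Rn18s-rs5, Lars2 and mmu-mir-689-2 left out of the totals, Cspg4 was highest in cluster 2 and the ratio of cluster 6 to cluster 2 was 0.999, so 1 member was highest in cluster 2 (25.3% of genes tested), 1 in cluster 5 (15.4%) and 0 in cluster 6 (6.14%), and 2 members were higher (6.71%) and 0 lower (42.6%) than the input in cluster 5. Without mitochondrial and haemoglobin genes, 0 were lower in cluster 5 (57.0%). With RPKM above 5 as the threshold, members passing were 3 in clusters 2 and 4 (12.8% of all genes in both), 2 in cluster 5 (9.86%) and the input (19.2%), and 4 in cluster 7 (13.6%), and with RPKM above 1 they were 5 in cluster 6 (23.3%) and 9 in the input (48.0%). With a 4-fold threshold, 5 members differed between the highest and the lowest sorted library (15.7% of genes tested), members higher than the input were 1 in cluster 1 (0.858%), cluster 2 (1.79%) and cluster 3 (0.895%) and 0 in cluster 4 (0.981%) and cluster 5 (0.850%), and members lower were 0 in cluster 2 (19.4%), cluster 3 (19.6%), cluster 5 (19.5%) and cluster 6 (21.7%). With a pseudocount of 0.1, 2 were lower in cluster 5 (68.2%) and 4 higher in cluster 7 (4.41%), and without the RPKM filter 2 were lower in cluster 3 (30.1%) and 5 in cluster 6 (34.4%). Of the levels and ratios recomputed for single genes, 334 moved by less than their counting interval and 115 by more. A further 1, that of Cspg4, turned from a direction that was beyond counting error. Not every ratio to the input is covered by this count. Rgcc in cluster 2 was 0.708 times the input (0.689 to 0.728) by total count but, as given above, exceeded it with TMM factors. Ratios whose direction was within counting error also turned. That of cluster 1 to cluster 7 for Tagln turned to 0.975 and 0.989 with TMM and DESeq2 factors. That of cluster 1 to cluster 5 for Mcam turned to 0.774 and 0.720 with these factors, and to 0.768 without the 3 loci. With counts thinned to the lowest total, that of cluster 4 to cluster 1 for Notch3 turned to 0.988. The depth of cluster 5, the lowest total, and counts of 16 to 39 reads for Kcnj8, Tagln and Myh11 in cluster 6 limit the precision of ratios to these libraries.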

Other observations

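Erythroid RNA differed widely between the sorted libraries. The 6 erythroid markers, led by Hba-a1, had their highest level in cluster 5 for all 6, against 4.73% of genes tested. Hba-a1 was 30376 RPKM there against 593 in cluster 6 and 849 in cluster 4. The highest r of the 10 genes with the summed level was 0.45, of Rgs5, and the lowest was -0.63, of Cspg4. Leukocyte and myeloid markers, led by S100a8, were highest in cluster 7 for 7 of 8, against 25.3% of genes tested. Csf1r was at 15.05 there and 1.81 to 5.55 in the other sorted libraries. Srf, which encodes serum response factor, was 12.6 in cluster 2, 9.37 in cluster 1 and 4.05 in cluster 5. Its r with Acta2 was 0.22 by total count and -0.14 with TMM factors.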
